A study of Mus musculus with 6 samples.

Results

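The GATA transcription factor family consists of 6 genes in the mouse, Gata1 to Gata6, and 5 of them were measured here among 30176 genes with an array row of their own. A gene was taken from the rows that carry a single symbol in the array annotation, and each of the 5 members had 1 such row. The only row of Gata3, a factor of T cells, sympathetic neurons and trophoblast, also carries another symbol, so no value is given for it. The RNA came from aggregates of R1 cells, a mouse embryonic stem cell line, grown inside core-shell microcapsules. The 3 arrays called before had 7 days of culture in Knockout DMEM with Knockout serum and LIF, which holds stem cells undifferentiated, and the 3 called after had 3 more days with BMP-4 and bFGF in regular DMEM, for which neither serum nor LIF is listed. Medium, growth factors and days of culture therefore changed together, and their parts cannot be told apart. Each array is a biological replicate by its label, and the p-values measure the spread between these arrays. The aggregates are whole, and more RNA per cell cannot be told apart from more cells of a type.

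GATA factors bind DNA through a pair of zinc fingers that recognise the letters GATA with A or T before and A or G after them. GATA1 and GATA2 act in red cells, megakaryocytes and blood progenitors. GATA4, GATA5 and GATA6 act in heart, gut and extraembryonic endoderm. In the mouse blastocyst GATA6 and the pluripotency factor NANOG mark cells that take opposite fates, FGF4 favours the primitive endoderm side, and forced expression of Gata4 or Gata6 turns mouse embryonic stem cells into primitive endoderm-like cells. FOG proteins, encoded by Zfpm1 and Zfpm2, bind the amino-terminal finger of GATA factors.

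The letters these proteins recognise were looked up in RefSeq promoter sequences (GRCm38.p6), each 300 bases long with 250 before and 50 after the start of a transcript. The search took AGATAA as well as AGATAG, and with the other leading base TGATAA as well as TGATAG, on both strands with overlaps allowed, and 29.8% of 32851 promoters held at least 1 match. The promoter table holds 4 of the 6 members, and Gata4 and Gata6 are not among those. In the windows of Gata1, Gata2 and Gata5 no match was found, and that of Gata3 held 1. Of 21 genes past the array test among the members and the lists described later, 16 have a promoter in the table. A match in at least 1 promoter was held by 3 of these 16, namely Dab2, Gkn1 and Krt8, beside 33.0% of all genes. The 250 bases before the start are shown for these 3, for the natriuretic peptide gene Nppb, a known GATA4 target of the heart, and for Klf1, an erythroid gene that GATA1 activates. Nppb and Klf1 did not pass the array test. Capitals mark the matches, which are a description of the letters and not of bound sites.
Dab2, chr15:6299539-6299788 (plus strand): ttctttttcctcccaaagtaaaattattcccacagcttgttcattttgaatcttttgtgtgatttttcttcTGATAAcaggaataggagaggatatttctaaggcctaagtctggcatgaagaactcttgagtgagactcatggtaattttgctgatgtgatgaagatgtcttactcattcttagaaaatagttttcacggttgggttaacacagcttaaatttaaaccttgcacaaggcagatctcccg
Gkn1, chr6:87350916-87351165 (minus strand): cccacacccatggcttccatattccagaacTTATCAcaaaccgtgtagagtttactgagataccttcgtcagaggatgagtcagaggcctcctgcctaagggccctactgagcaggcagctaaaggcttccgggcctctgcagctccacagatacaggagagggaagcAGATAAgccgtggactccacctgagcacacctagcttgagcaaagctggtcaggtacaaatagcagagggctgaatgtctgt
Krt8, chr15:102004343-102004592 (minus strand): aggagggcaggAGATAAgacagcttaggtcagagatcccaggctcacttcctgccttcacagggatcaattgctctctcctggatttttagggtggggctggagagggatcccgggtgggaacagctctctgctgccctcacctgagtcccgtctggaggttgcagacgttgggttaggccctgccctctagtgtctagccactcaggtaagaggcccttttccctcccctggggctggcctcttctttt
Nppb, chr4:147985650-147985899 (plus strand): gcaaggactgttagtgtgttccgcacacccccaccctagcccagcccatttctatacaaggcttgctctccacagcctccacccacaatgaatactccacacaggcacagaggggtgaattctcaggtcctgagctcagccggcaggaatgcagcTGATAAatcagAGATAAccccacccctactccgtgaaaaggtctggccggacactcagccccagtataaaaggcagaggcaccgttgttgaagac
Klf1, chr8:84901732-84901981 (plus strand): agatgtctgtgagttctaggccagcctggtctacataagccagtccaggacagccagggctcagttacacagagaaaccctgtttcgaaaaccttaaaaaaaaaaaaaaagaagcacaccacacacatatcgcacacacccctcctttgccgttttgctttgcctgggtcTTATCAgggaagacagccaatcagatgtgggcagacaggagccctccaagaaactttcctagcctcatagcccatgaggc
The match of Klf1 begins 80 bases before the start, and those of Nppb begin 95 and 84 bases before it. Dab2 has another promoter in the table without a match.

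Gata4 and Gata6 had higher signals after pre-differentiation on every array, and the other members differed by at most 0.28 log2 units in their means. Of the 5 members, 1 rose by limma's adjusted test, Gata4, and 0 fell. Over all genes 1.24% rose and 0.65% fell by that test. At an unadjusted p under 0.05 there were 2 higher members, where 10.9% of all genes were higher, and 0 lower, where 19.7% of all genes were lower. The groups were fully separate with after higher for 2 members and with after lower for 0, beside 11.8% and 28.2% of all genes. The members' median log2 change was 0.28, beside -0.16 over all genes, and the median over all rows tested was -0.18.

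**Figure D1:**
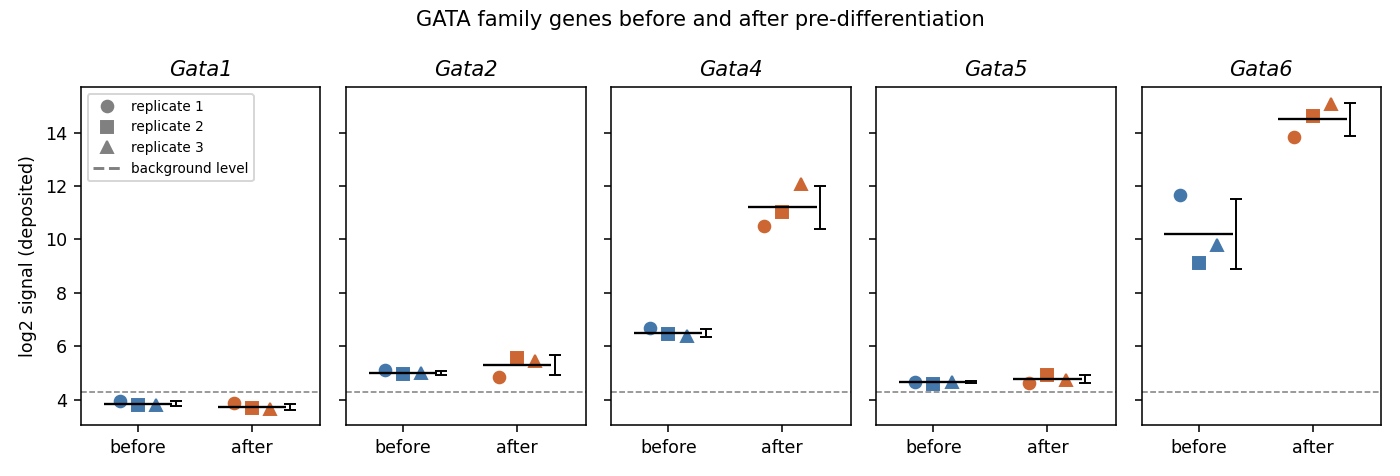
Deposited log2 signal (vertical axis) of the 5 measured GATA genes on the 3 before (blue) and 3 after (orange) arrays, with a symbol for each replicate, the mean as a line and the SD as a bar beside it. The dashed line is the background level of 4.27. Gata4 and Gata6 have no overlap between groups, and Gata1 lies under the dashed line on every array.

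Gata4 encodes a factor needed for heart tube formation and for visceral and parietal endoderm. Its log2 signals before were 6.68, 6.44 and 6.37, and after 10.51, 11.01 and 12.09. The lowest after array lay 3.84 log2 units above the highest before array. The before arrays lay close together, at 6.50 ± 0.16 (SD, n = 3), while the after arrays spread more widely, at 11.21 ± 0.81 (SD, n = 3). Gata4 rose by 4.71 on the log2 scale with a standard error of 0.40, and limma gave an adjusted p = 0.0249. On the linear scale this is 26.2-fold, the 95% interval reaching from 13.2 to 52.04. The exact two-sided permutation test gave p = 0.1, the smallest that 3 arrays against 3 allow. Of all genes, 82 had a log2 change at least as large, Gata4 included. The call ended when before replicate 1 (adjusted p = 0.155), before replicate 3 (0.0727), after replicate 2 (0.126) or after replicate 3 (0.0936) was left out, and in each of these 4 fits limma called 0 of 30176 genes. The change itself lay between 4.27 and 5.05 over leaving out each array.

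Gata6 encodes the factor that starts the primitive endoderm programme. Its log2 signals before were 11.65, 9.13 and 9.78, and after 13.84, 14.63 and 15.06. It was thus far above the background level before pre-differentiation too, by 5.92 log2 units on average. The before arrays differed more than those of Gata4, at 10.19 ± 1.31 (SD, n = 3), with before replicate 1 highest. The after arrays were at 14.51 ± 0.62 (SD, n = 3), and the groups were 2.19 log2 units apart at their nearest. The log2 change was 4.32 with a standard error of 0.70, and its adjusted p = 0.0530 by limma misses the threshold. On the linear scale it is 19.99-fold, the 95% interval reaching from 6.104 to 65.5. The exact permutation test again gave p = 0.1. Without before replicate 1 the log2 change was 5.05 with a standard error of 0.43. Leaving out that array also removed every call over all genes (adjusted p = 0.137 for Gata6), and leaving out after replicate 1 brought Gata6 past the threshold (4.66, adjusted p = 0.0293).

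The changes of Gata4 and Gata6 were close in size. The exact permutation test could not show a difference at 0.05, since 3 arrays against 3 allow no p below 0.1. Within an array, the Gata4 signal minus the Gata6 signal lay between -4.98 and -2.69 before and between -3.62 and -2.97 after, and the ranges overlap. The change of Gata4 was larger by 0.39 on the log2 scale (exact permutation p = 0.8, adjusted p = 0.8 over 10 pairs of members). Gata4 and Gata6 set against Gata2 and Gata5 had separate ranges before and after. Each of these 4 pairs had an exact permutation p of 0.1, the smallest possible, and an adjusted p of 0.167. Pairs with Gata1 are not described, since it lay under background.

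Gata2 encodes a factor of blood progenitors, endothelium and trophoblast. Its log2 signals before were 5.09, 4.95 and 4.98, and after 4.85, 5.57 and 5.45. After replicate 1 lay below every before array and the other 2 after arrays above. The log2 change, 0.28 with a standard error of 0.21, had an adjusted p = 0.421 by limma, and the fold was 1.22, the 95% interval being 0.849 to 1.74. Without after replicate 1 it was 0.50 (adjusted p = 0.0890), and without after replicate 2 it was 0.14.

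Gata5 encodes the relative of GATA4 and GATA6 found in endocardium and gut. Its log2 signals before were 4.66, 4.60 and 4.66, and after 4.63, 4.94 and 4.75. After replicate 1 lay within the before range and the groups overlapped. The log2 change, 0.13 with a standard error of 0.13, had an adjusted p = 0.527 by limma, and the fold was 1.09, the 95% interval being 0.884 to 1.35. Without after replicate 2 it was 0.05.

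Gata1 encodes the erythroid and megakaryocytic factor. Its log2 signals before were 3.95, 3.803 and 3.79, and after 3.85, 3.69 and 3.63. All of these lay under the background level of 4.27, below which 95% of the mean signals fell for 1716 olfactory and vomeronasal receptor genes, used here as genes with little or no transcript. The log2 change, -0.12 with a standard error of 0.12, had an adjusted p = 0.528 by limma, and it turned to 0.06 with each array centred on its median and 0.05 with quantile normalization. No after array rose above background, and a change that stays under it cannot be read on these arrays.

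The array of after replicate 1 stood apart from the other after arrays. A principal component analysis of the 5000 rows of highest variance gave a leading component with 76.6% of it, on which this array lay at -2.48, where the before arrays reached from -109.3 to -63.9 and the other after arrays were at 131.4 and 130.9. Pou5f1, which encodes OCT-4, was between 14.81 and 15.71 before, and at 14.48 on that array beside 6.18 and 6.90 on the others, so the defining marker of the labelled cells was present in all before arrays. Among the GATA genes, Gata4 and Gata6 on this array were far above the before arrays, while Gata2 lay below every before array and Gata1 and Gata5 lay within the before range. Gata4 was 4.02 log2 units above the before mean there, beside 4.51 and 5.60 on the other after arrays, and Gata6 was 3.65 above, beside 4.44 and 4.87. Nanog, which is antagonistic to Gata6 in the blastocyst, stood at -2.10 relative to its before mean on that array and at -11.07 and -10.02 on the others. Its log2 signals were 16.34, 14.79 and 17.24 before and 14.02, 5.05 and 6.10 after (log2 change -7.73, adjusted p = 0.139 from limma). After replicate 1 therefore held both high Gata4 and Gata6 and high Nanog signals, and whether the same cells held them cannot be told apart in whole aggregates.

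**Figure D2:**
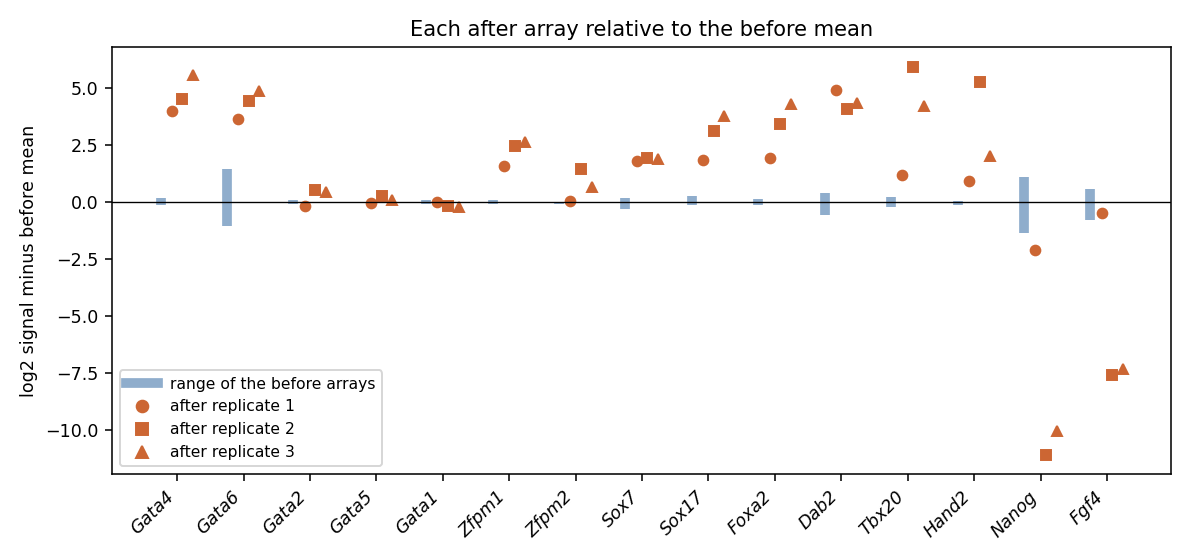
Log2 signal of each after array minus the mean of the before arrays (vertical axis), with a symbol for each after replicate and a blue bar for the range of the before arrays, for GATA genes, cofactors, endoderm and heart factors, Nanog and Fgf4. After replicate 1 lies near the other after arrays for Gata4, Gata6 and Sox7, but at -2.10 for Nanog where the others are at -11.07 and -10.02.

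Among cofactors and partners of GATA proteins, 2 of 21 genes rose, Zfpm1 and Runx1, and 0 fell, with a median log2 change of 0.50. Zfpm1, which encodes FOG1, had log2 signals of 5.31, 5.38 and 5.47 before and 6.97, 7.86 and 8.06 after. All after arrays were thus higher, with the nearest ones 1.503 apart, and limma gave a log2 change of 2.24 (SE 0.29) at an adjusted p = 0.0431. Runx1, a factor of blood stem cell formation, changed by 1.41 on the log2 scale (SE 0.17) at an adjusted p = 0.0384. Both calls ended without before replicate 2, at adjusted p = 0.0698 for Zfpm1 and 0.0602 for Runx1, with trend and robust variances (0.0537 and 0.0618), and in the 4 fits that call no gene. Zfpm2, which encodes FOG2 of the heart, had log2 signals of 4.50, 4.49 and 4.42 before and 4.54, 5.93 and 5.13 after. Its after replicate 1 was only 0.04 above the highest before array, and the log2 change was 0.73 (adjusted p = 0.2499), or 0.36 without after replicate 2.

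Of the heart factors that work with GATA4, several were highest on after replicate 2. Tbx20 had log2 signals of 4.70, 4.43 and 4.26 before and 5.65, 10.42 and 8.70 after (log2 change 3.79, adjusted p = 0.135). Hand2 was at 3.76, 3.91 and 3.95 before and 4.82, 9.18 and 5.89 after (log2 change 2.75, adjusted p = 0.191). On both genes the after arrays lay above the before arrays but spread over several log2 units. Nkx2-5 and Tbx5 had log2 changes of -0.13 and 0.50 (adjusted p = 0.586 and 0.414), and both overlapped between groups. Blood partners of GATA1 and GATA2 differed in whether they stood above background. Ldb1, a bridging protein of that complex, was between 9.93 and 10.93 over all arrays and the helix-loop-helix gene Tcf3 between 7.65 and 9.07, with changes of 0.44 and 0.23 (adjusted p = 0.386 and 0.697). Lmo2 lay between 4.34 and 4.61 over all arrays, near background, and Tal1 was at 5.38 on before replicate 3 and between 3.92 and 4.305 on the others.

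Other genes with a GATA-type zinc finger lay above the background level, all 7 of those measured. Of these 7 among 9 listed, 0 passed limma's test. At an unadjusted p under 0.05, 2 were higher (10.9% of all genes), and the median log2 change was 0.48. Rere, a nuclear receptor coregulator, came closest to the threshold, with 1.15 on the log2 scale (adjusted p = 0.0503). Gatad1, Gatad2a and Gatad2b, the last 2 subunits of the NuRD chromatin complex, had changes of 0.45, -0.40 and 0.92 (adjusted p = 0.156, 0.647 and 0.352). The transcript named Gata6os, from the opposite strand at Gata6, was examined after its values were seen. Its log2 signals were 5.67, 4.79 and 5.52 before and 5.67, 6.19 and 6.42 after (log2 change 0.77, adjusted p = 0.195), so the groups touched where Gata6 itself was well separated.

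Genes of the BMP pathway, upstream of the GATA genes, had mostly higher means after. Those listed for the FGF and primitive endoderm switch had mostly lower means after. Of 15 genes of the BMP pathway, 1 rose, Id2, and 0 fell, while 9 were higher at an unadjusted p under 0.05 (10.9% of all genes), with a median log2 change of 0.93. Id2, a BMP target that inhibits helix-loop-helix factors, had log2 signals of 6.89, 9.19 and 7.92 before and 12.39, 14.10 and 13.56 after (log2 change 5.35, standard error 0.69, adjusted p = 0.0431). The receptor gene Bmpr2 had a change of 3.87 (adjusted p = 0.0541) and the ligand gene Bmp4 one of 0.75 (adjusted p = 0.550). Of 13 measured genes among 15 of the FGF and primitive endoderm switch, 0 passed the test and 6 were lower by the unadjusted test at 0.05 (19.7% of all genes), and the median was -1.86. The list for this switch also holds the pluripotency genes Nanog, Pou5f1, Sox2 and Klf4. Of these, Nanog, Pou5f1 and Sox2 were among the 6 lower genes. Fgfr1 and Grb2 had changes of 0.17 and 0.18. Fgf4, the ligand of that switch, was at 11.64, 10.63 and 12.01 before and 10.96, 3.84 and 4.13 after (log2 change -5.12, adjusted p = 0.182). After replicate 1 kept it within the before range. Fgfr2, a receptor of primitive endoderm, had a change of 2.06 (adjusted p = 0.0803).

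GATA4 and GATA6 act in the extraembryonic endoderm of the embryo. Of 9 measured endoderm transcription factors among 10, 1 rose, Sox7, and 0 fell. In 6 the groups were separate with after higher, beside 11.8% of all genes. Sox7 had log2 signals of 5.72, 5.60 and 5.23 before and 7.35, 7.46 and 7.43 after (log2 change 1.89, SE 0.16, adjusted p = 0.0249). All 3 after arrays were alike for this gene. Sox17, Foxa2 and Hnf4a had changes of 2.92, 3.25 and 1.51 (adjusted p = 0.0557, 0.0616 and 0.0643). Of 17 measured parietal endoderm genes among 18, 12 rose and 0 fell, with a median log2 change of 5.47. All 17 had separate groups with after higher, beside 11.8% of all genes. The largest changes past the test were those of Krt18 (8.29), Col4a2 (7.55), Col4a1 (6.87) and Lamb1 (6.35), which encode a keratin and basement membrane chains. Dab2, an endocytic adaptor that GATA6 activates, had log2 signals of 8.20, 9.18 and 8.89 before and 13.70, 12.86 and 13.13 after (log2 change 4.47, adjusted p = 0.0244). Here after replicate 1 was the highest array. The list's median signal lay between 6.94 and 7.55 on the before arrays and between 11.80 and 14.55 on the after arrays, so these markers moved with Gata4 and Gata6, and their part in the GATA result was not tested. Without after replicate 1 all 17 rose, and without before replicate 2 only 6 did. In the 4 fits that call no gene, none of the list calls in these lists remained.

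Of 17 measured visceral endoderm genes among 18, 2 rose, Afp (10.86, adjusted p = 0.0477) and the hedgehog ligand gene Ihh (1.63, adjusted p = 0.0354), and 0 fell, with a median of 2.83. At an unadjusted p under 0.05 from limma, 11 were higher and 1 lower, beside 10.9% and 19.7% of all genes. The groups were separate with after higher in 13 and with after lower in 1, beside 11.8% and 28.2% of all genes. A higher mean was found in 16 of 17. The list's median signal was between 5.37 and 5.60 before and between 9.09 and 11.49 after. Of 13 gut epithelium genes 1 rose, the stomach gene Gkn1 (7.54, adjusted p = 0.0458), and 0 fell, with a median of 0.27. Means were higher after in 8 of the 13. Limma's unadjusted test at 0.05 gave 5 higher gut genes and 0 lower ones, beside 10.9% and 19.7% of all genes. In 5 the groups were separate with after higher, and in 1 with after lower, beside 11.8% and 28.2% of all genes. The intestinal genes Fabp1, Lct and Sis, among those with lower means, had changes of -0.11, -0.24 and -0.16 (adjusted p = 0.886, 0.223 and 0.420). The group mean exceeded background for 9 of these 13. Without before replicate 2, 0 of the visceral and 0 of the gut genes passed, and with trend and robust variances Ihh did not (adjusted p = 0.0558).

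**Figure D3:**
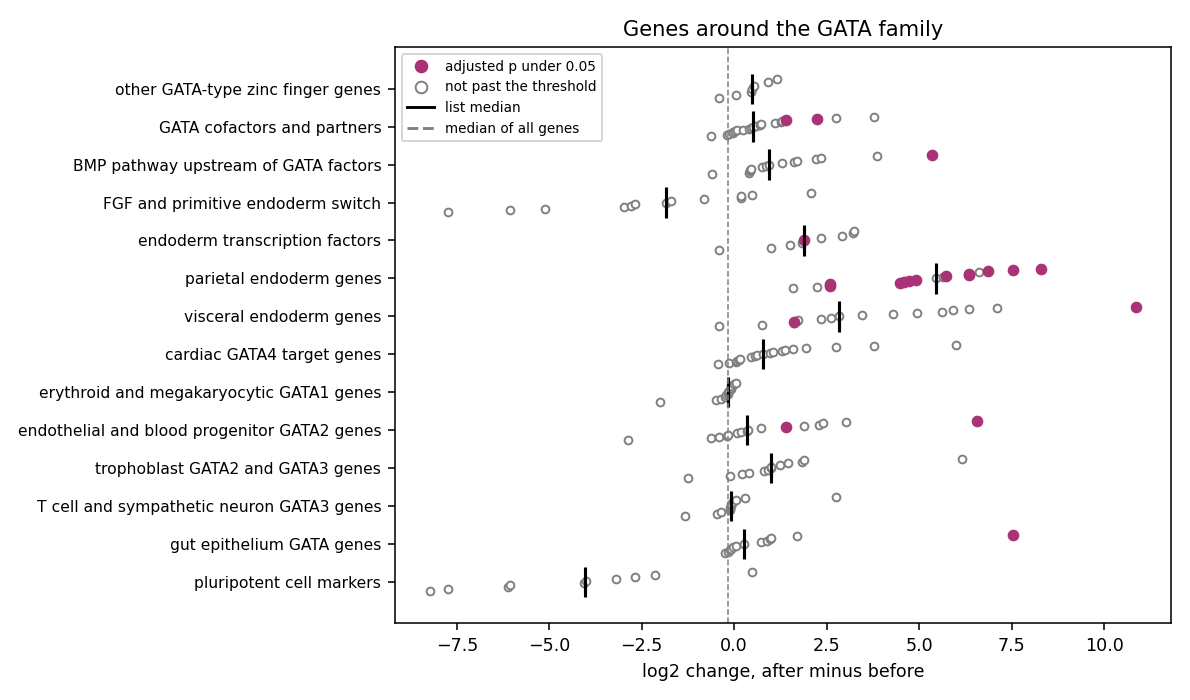
Log2 change, after minus before (horizontal axis), of each measured gene in the lists named on the vertical axis, with filled points for an adjusted p under 0.05 from limma, a black line for the list median and a dashed line for the median of all genes at -0.16. Parietal endoderm genes hold 12 filled points, the cardiac GATA4 target and erythroid lists 0.

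Among 19 measured cardiac target genes of GATA4 out of 20, 0 passed limma's test. At an unadjusted p under 0.05, 5 were higher (10.9% of all genes), and the median log2 change was 0.79. Nppa and Nppb, the natriuretic peptide genes, had changes of 0.96 and 0.45 (adjusted p = 0.340 and 0.170), and the contractile genes Actc1 and Tnnc1 of 1.95 and 0.57 (adjusted p = 0.286 and 0.275). Nppb was at 5.03, 5.27 and 5.39 before and 5.45, 5.83 and 5.77 after. The groups were separate by a small margin. The largest change in the list was that of the cyclin gene Ccnd2 (5.99, adjusted p = 0.0669). Matches to the GATA letters stood in at least 1 promoter of 9 of 19 cardiac target genes in the table, beside 33.0% of all genes, and in 2 of 12 parietal endoderm genes.

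Lists for the lineages of Gata1, Gata2 and Gata3 differed in how many genes had higher signals. Of 13 measured erythroid and megakaryocytic genes among 18, 0 passed limma's test. By the unadjusted test at 0.05, 1 was lower (19.7% of all genes). The median was -0.17, near that of all genes. The group mean exceeded background for 5 of the 13. Klf1 had a change of -0.48 (adjusted p = 0.236), Epor of 0.00454 (adjusted p = 0.985), Alas2 of -0.25 (adjusted p = 0.222) and Hba-x of -0.22 (adjusted p = 0.287). Matches to the GATA letters stood in promoters of 9 of 12 genes of this list, beside 33.0% of all genes. Of 16 measured endothelial and blood progenitor genes among 17, 2 rose, Cdh5 (6.56, adjusted p = 0.0495) and Runx1, and 0 fell, with a median of 0.35, and neither passed without before replicate 2 or with trend and robust variances (adjusted p = 0.0528 for Cdh5). Cdh5, which encodes VE-cadherin, was at 5.27, 5.46 and 4.80 before and 9.59, 11.95 and 13.66 after. Of the 16 genes, 11 had a higher mean after. Without adjustment, limma's test at 0.05 gave 5 higher genes and 2 lower ones in this list, beside 10.9% and 19.7% of all genes. The groups were separate with after higher in 7 of its genes and with after lower in 4, beside 11.8% and 28.2% of all genes. The lowest change in the list was that of Pecam1, at -2.88 (adjusted p = 0.151). Of 13 measured trophoblast genes among 15, 0 passed. At an unadjusted p under 0.05 from limma, 8 were higher and 1 was lower, beside 10.9% and 19.7% of all genes. The median was 0.99 and the lowest change was -1.24. Cdx2, Elf5 and Plac1 had changes of 0.99, 0.20 and 1.24 (adjusted p = 0.1597, 0.469 and 0.0771). Of 11 measured T cell and sympathetic neuron genes among 15, 0 passed, and 1 was higher and 3 were lower at an unadjusted p under 0.05, beside 10.9% and 19.7% of all genes. The 1 higher gene was Hand2, described above with the heart factors. The median of this list was -0.10, and Cd3e had a change of -1.33 (adjusted p = 0.121). Of these 11, 4 had a group mean above background.

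The genes whose signals over the 6 arrays came nearest to those of Gata4 were sought among 14154 genes above background, predicted loci named Gm or Rik left out, by the root mean square difference of log2 signals centred on each gene's mean. The nearest were Plod2, a collagen lysyl hydroxylase, at 0.36 log2 units, Creb3l2, a transcription factor of the secretory pathway, at 0.39, Ugt2b34, a glucuronosyltransferase, at 0.42, the collagen prolyl hydroxylase subunit gene P4ha1 at 0.46 and the parathyroid hormone receptor gene Pth1r at 0.46. Gata4 itself varied by 2.40 on the same measure. Only 7 genes lay within 0.5 of it. For Gata6 the nearest were the basement membrane gene Nid1 at 0.32, Myof, which encodes a membrane repair protein, at 0.46, and Gata4 at 0.73, followed by Rhou at 0.74 and Rnf128 at 0.78. Nid1 shared the high value of before replicate 1, at 10.53 beside 8.53 and 9.55, and rose to 13.20, 14.32 and 14.84. Within 0.5 of Gata6 lay 2 genes. Gata2 and Gata5 varied so little that 6479 and 7206 genes lay within 0.5 of them, so their nearest genes, Mob1a, Adamts18, Serpinb8, Aldh1a3 and Serpinb11 for Gata2 and Ptpre, Smim1, Cbfa2t3, Col23a1 and Cbln1 for Gata5, are 5 among many as near.

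**Figure D4:**
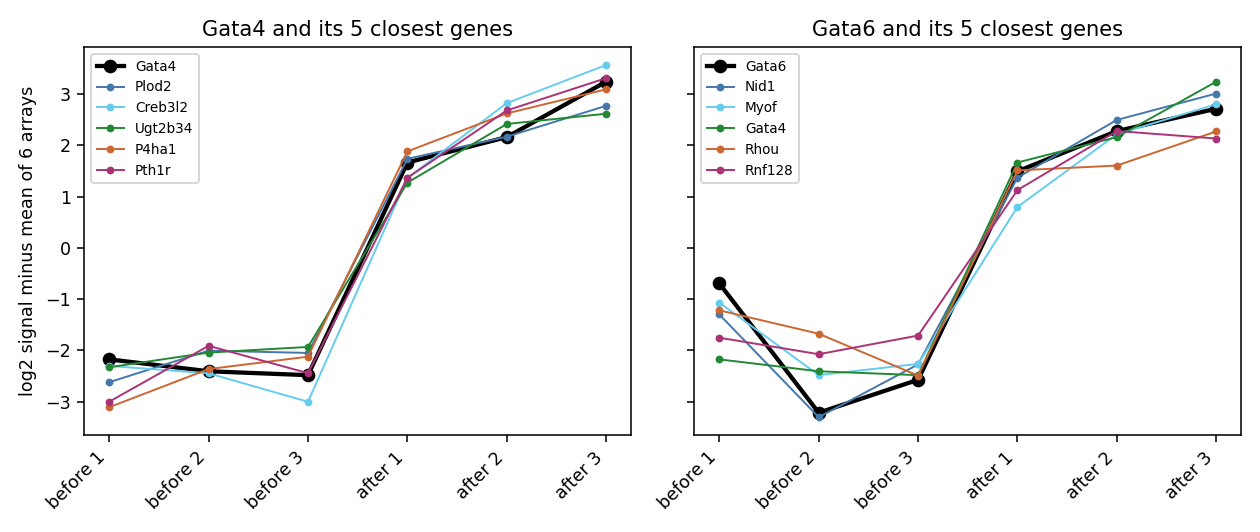
Log2 signal minus the mean of the 6 arrays (vertical axis) for Gata4 and Gata6 (black) and the 5 genes nearest to each, over the 6 arrays (horizontal axis); lines join the points of a gene and carry no order in time. Gata6 and Nid1 share a higher value on before replicate 1, and the before arrays of Gata4 lie close together.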

How the data were processed

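Total RNA was hybridised to Clariom D mouse arrays. The values the authors deposited are log2 signals, 1 column per array, from Transcriptome Analysis Console. Its version, the summarization, the background correction and the genome build: not given in the sources used here. Unlike probes differ in response, so levels of different genes were not compared. Array medians were between 4.17 and 4.47, and the number of arrays limits the precision.

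Of 72688 rows, 31 AFFX control rows were left out. The other 72657 rows were fitted with lmFit and tested two-sided with eBayes (limma 3.58.1, R 4.3.3) with Benjamini-Hochberg adjustment over them and a threshold of 0.05; these include 6887 control and unmapped rows. Rows with 1 symbol (30638) gave 30176 genes, each by its brightest row, and 2176 rows with several symbols name no gene. The study names no test for the arrays.

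Members and lists were chosen with earlier results of these data known. Named genes were the members, up to 4 called genes per list and direction or the first 4 where none passed, Zfpm1, Zfpm2 and Nanog, and the 5 nearest patterns. Lists covered other GATA-type zinc finger genes, cofactors, the BMP pathway, the FGF and primitive endoderm switch, endoderm factors, and parietal and visceral endoderm. Further lists covered cardiac, erythroid, endothelial, trophoblast, T cell and sympathetic neuron, and gut genes, and pluripotent cell markers. Named outside that rule, and chosen after their values were seen, were Tbx20, Hand2, Nkx2-5, Tbx5, Lmo2, Tal1, Ldb1, Tcf3, Rere, Gata6os, Bmp4, Bmpr2, Sox17, Foxa2, Hnf4a, Dab2, Krt8, Fabp1, Lct, Sis, Ccnd2, Plac1, Pecam1, Klf4, Cubn, Lrp2, Apob and Ttr. The fit was tested on simulated data. As alternatives, arrays were quantile normalized or centred on their medians, and dim rows or control rows were left out. The fit was also changed: trend and robust variances, Student's t-test, the mean of a gene's rows, a replicate block and leaving out each array. The study's methods name Student's t-test for other assays, not for the arrays.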

Additional observations from a re-analysis of the deposited data

How the results depend on the processing

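Over all rows the median change was -0.18 (log2) as deposited and -0.02 after quantile normalization. Gata4 kept its direction in all 16 alternatives and Gata6, Gata2 and Gata5 in all of theirs, while Gata1 turned to 0.0572 with median centring and 0.047 with quantile normalization. Adjusted p over 15 adjusted alternatives ranged from 0.00379 to 0.155 for Gata4 and from 0.0293 to 0.211 for Gata6. Gata4, at a log2 change of 4.71, did not pass Student's t-test after adjustment (adjusted p = 0.124, where 0 of all genes passed). Gata6 passed, at 4.32, with control rows left out (adjusted p = 0.0447), with only rows above background (0.0371) and with rows above the median row (0.0355), settings that test fewer rows, and at 4.60 with quantile normalization (0.0474). It also passed Student's t-test without adjustment, at 4.32 (unadjusted p = 0.00667). Members called higher were thus 2 with quantile normalization, control rows left out, both filters on dim rows and the unadjusted t-test, and 0 after its adjustment. The cause of these differences was not tested for any setting. The unadjusted p of Gata6 by limma differed too, from 0.000866 in the main fit. It was 0.000753 with control rows left out, 0.000673 with rows above background and 0.000648 with rows above the median row. Leaving out each array gave 0 to 2 higher members, with changes of 4.27 to 5.05 for Gata4, 3.79 to 5.05 for Gata6, 0.14 to 0.50 for Gata2, 0.05 to 0.20 for Gata5 and -0.19 to -0.07 for Gata1. Over all genes, 373 higher and 196 lower became 2353 and 2257 without after replicate 1, 101 and 67 without before replicate 2, and 0 and 0 without any of the other 4 arrays. In the fit with a replicate block, 0 members and 0 of all genes passed, and Gata4 had 4.71 at an adjusted p = 0.102. The labels do not say whether a shared replicate number marks a culture or a day. Deviations of same-numbered arrays from their group means correlated at -0.03, 0.14 and -0.08. With 3 arrays per group these correlations cannot settle whether the arrays were paired. Counts of higher and lower genes were also 552 and 392 with control rows left out, 645 and 419 with rows above background, 674 and 448 with rows above the median row, 138 and 30 with trend and robust variances, and 2320 and 5546 by the unadjusted t-test. Median centring gave 486 and 135, 78.3% higher beside 65.6% as deposited. Of 448 comparisons of a list's count with an alternative, 349 stayed within 1.5 times and 99 did not. A count of 0 in both fits was taken as staying, and every list had 0 lower genes in the main fit. For lists with higher calls in the main fit, the higher count left that range in 7 (parietal endoderm) to 13 (BMP pathway) of 16 alternatives. Parietal endoderm genes called higher ranged from 0 to 17 over leaving out each array, and pluripotent cell markers called lower from 0 to 8.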

Other observations

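Among pluripotent cell markers 0 of 10 passed limma's test, while 7 were lower by the unadjusted test at 0.05 (19.7% of all genes). The median log2 change was -4.03, and Klf4 had a change of 0.49.

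The visceral endoderm genes did not all peak on the same after array, in contrast to Gata4 and Gata6, which were highest on after replicate 3. Of 17 such genes, 5 were highest on after replicate 1, 9 on after replicate 2 and 3 on after replicate 3, while 15 of 17 parietal endoderm genes were highest on after replicate 3. Cubn and Lrp2, the endocytic receptors cubilin and megalin, were at 16.79 and 14.49 on after replicate 1, beside 11.66 and 9.94 on after replicate 2 and 10.70 and 11.06 on after replicate 3. Afp, Apob and Ttr, which encode secreted plasma proteins, were at 11.60, 7.99 and 9.52 on after replicate 1 and at 17.90, 13.41 and 14.02 on after replicate 2. These values are single arrays, and the differences between them were not tested.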
